A study of Sus scrofa with 7 samples.

Results

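The genes described here are the zinc finger genes that can be recognised from their symbols: every feature of the deposited expression table whose symbol starts with ZNF, ZFP, ZSCAN, ZKSCAN or ZBTB followed by a digit, and that the authors had tested. There were 248 such features with 238 distinct symbols among 13352 tested features. Another 17 features fitted the symbols but had not been tested by the authors. Symbols were not checked against protein sequences, and 1 feature that fits the rule, ZBTB8OS, is named for lying opposite ZBTB8A and does not encode a zinc finger protein.

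The study measured RNA from the hypothalamus of Duroc x Landrace x Large White piglets that carried a T-cannula in the distal ileum. In the control group (4 libraries) 10 mL of saline (0.9% NaCl) was infused through the cannula. In the antibiotic group (3 libraries) the same volume carried a daily dose, per kg of body weight, of 150 mg ampicillin, 4 mg gentamicin and 30 mg metronidazole. All piglets carried the cannula and the samples were taken on postnatal day 45. The comparison asks how RNA levels in the hypothalamus differ when antibiotics reach the hind part of the gut.

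Most ZNF and many ZFP genes encode proteins with tandem C2H2 fingers, small loops held by a zinc ion that read DNA bases. Many of them carry a KRAB box, which recruits the corepressor TRIM28 and with it histone methylation by SETDB1, and are known for silencing transposable elements and marking imprinted loci. ZSCAN and ZKSCAN proteins carry a SCAN domain for pairing with each other, and ZBTB proteins a BTB domain that binds corepressors. Many KRAB zinc finger genes arose by tandem duplication, so that they lie in clusters of related genes. A few symbols name zinc binders of another kind, such as ZFP36L1 and ZFP36L2, which bind RNA.

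The table gives 1 FPKM value (fragments scaled to transcript length and to the number of mapped fragments) per gene and group. It holds no values of single libraries, so the spread between piglets, the depth of each library and an interval for each value are unknown. Gene symbols are those of the table, and a gene is said to have risen or fallen where the q-value of the authors' own test was under 0.05. No source used here says how far that test used the spread between piglets. A low FPKM rests on few fragments, and in bulk tissue fewer cells of a type and less RNA per cell cannot be told apart.

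Summed RNA levels of cell type and hypothalamus markers also differed between the groups. Of all tested features 19.0% rose and 22.2% fell (41.1% in either direction), the shares to set beside each count of markers. Of 11 tested hypothalamus markers 0 rose and 5 fell (PMCH, OXT, GNRH1, HDC and FEZF1). The 6 that did not pass were AVP, HCRT, TRH and CRH, which were lower in the antibiotic group, and POMC and AGRP, which were higher. The share called in either direction, 45.5%, was near that of all tested features. The summed level of hypothalamus markers was 867 FPKM in the control group and 333 in the antibiotic group. Within that sum PMCH stood at 282 and 18.6 FPKM, OXT at 310 and 96.8, and AVP at 211 and 181. The summed level of astrocyte markers was 4015 FPKM in the control and 7343 in the antibiotic group (4 of 7 tested rose, 1 fell), and that of oligodendrocyte precursor markers was 183 and 352 (4 of 5 rose, 0 fell). Microglia and macrophage markers summed to 725 and 505 FPKM (1 of 13 rose, 6 fell), ependyma and choroid plexus markers to 309 and 83.5 (1 of 6 rose, 4 fell), and erythroid markers to 5409 and 391 (0 of 2 rose, 1 fell). Some sums rest mostly on 1 or a few abundant genes and need not describe the whole cell type or tissue. HBB stood at 5400 and 386 FPKM, while ALAS2 stood at 3.36 and 3.09 and did not pass. TTR stood at 289 and 70.6 FPKM. GFAP stood at 2185 and 4819 FPKM, while AQP4, also an astrocyte marker, fell from 470 to 270. Neuron markers summed to 1640 and 1857 FPKM (4 of 9 rose, 1 fell), oligodendrocyte markers to 10194 and 12182 (2 of 9 rose, 3 fell) and endothelium and pericyte markers to 206 and 306 (5 of 9 rose, 0 fell). The part of these differences in the zinc finger results was not tested.

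More zinc finger genes fell than rose. Of the 248, 31 rose (12.5%), 58 fell (23.4%) and 159 did not pass the threshold, while of all tested features 19.0% rose and 22.2% fell (41.1% in either direction). The share that fell was near the background and the share that rose was below it, and no test of that difference was made. The median log2 of antibiotic over control was -0.08 for the zinc finger genes and -0.03 for all tested features, and the zinc finger median became 0.0035 when the groups were scaled to the same upper quartile. That scaling adds 0.08 to every log2 value, of zinc finger genes and all other features alike, so a median given here between -0.08 and 0 changes its sign with it. Whatever their q, 143 zinc finger genes were lower and 105 higher in the antibiotic group. With the authors' stricter call, which also asks for a 2-fold change, 13 rose and 14 fell, against 7.37% and 8.44% of all tested features.

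These genes were expressed at low levels. Their median was 3.72 FPKM in the control group and 3.71 in the antibiotic group, where all tested features had medians of 8.10 and 7.91. In the control group 149 of the 248 (60.1%) lay under 5 FPKM, against 36.5% of all tested features, and 17 (6.85%) lay at 20 FPKM or more, against 26.5%. Middle quartiles of the control level ran from 2.31 to 7.57 FPKM.

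**Figure D1:**
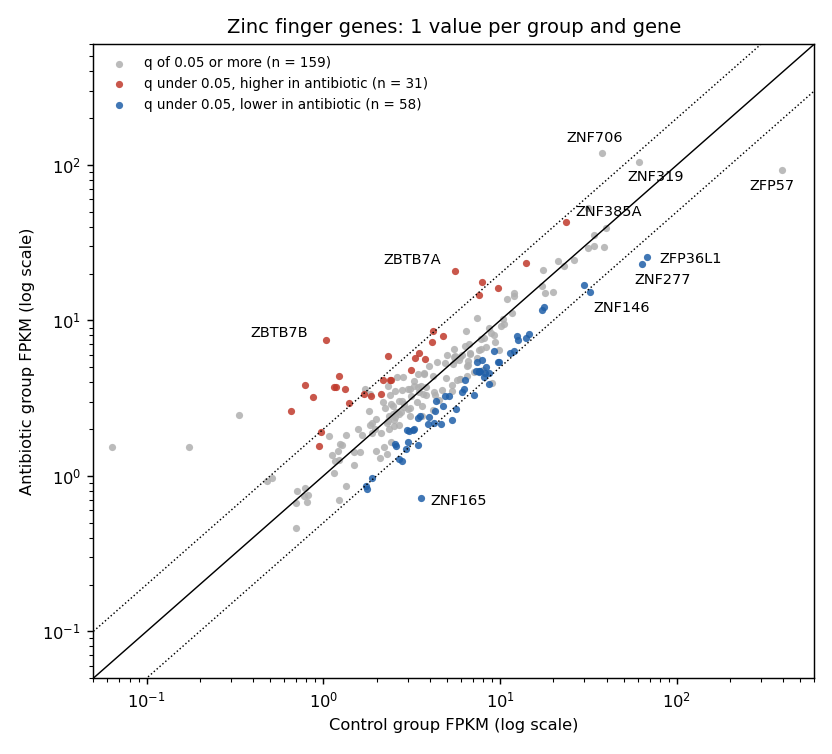
FPKM of each of the 248 zinc finger genes in the control group (horizontal, log scale) and in the antibiotic group (vertical, log scale), 1 point per feature, coloured by the authors' q and its direction; the solid line marks equal levels and the dotted lines a 2-fold difference. Most points lie under 10 FPKM, and of the points with q under 0.05, 31 lie above the line of equal levels and 58 below it.

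Split by mean level over both groups, the class from 5 to 10 FPKM held 58 zinc finger genes, of which 3 rose (5.17%) and 18 fell (31.0%), with a median log2 of -0.32. Of all tested features in that class 19.8% rose and 22.4% fell. In the class from 2 to 5 FPKM, the most populated with 110 genes, 19 rose and 26 fell (23.6%), beside 17.6% and 16.8% of all tested features. Under 1 FPKM, 0 of 12 passed the threshold in the authors' test, and 1 had an unadjusted p under 0.05. Of all tested features in that class 19.4% passed.

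Counted by the kind of symbol, of 191 ZNF genes 25 rose and 48 fell (median log2 -0.10), and of 18 ZFP genes 2 rose and 7 fell (median -0.15). Among 27 ZBTB genes 4 rose and 3 fell, with a median of 0.03. Of 9 ZSCAN genes none passed the authors' test, with 1 at an unadjusted p under 0.05, and of 3 ZKSCAN genes none passed, with 0 at that unadjusted p. In either direction 38.2% of the ZNF, 50% of the ZFP and 25.9% of the ZBTB genes were called. Of all tested features 41.1% were called, with 19.0% that rose and 22.2% that fell. The differences between these families, and from all tested features, were not tested.

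Among the BTB proteins the largest rise was that of ZBTB7B, which directs the CD4 fate of T cells in mice: it stood at 1.04 FPKM in the control and 7.45 in the antibiotic group. ZBTB7A, its close relative and a repressor of fetal globin genes, stood at 5.57 and 20.8 FPKM. Both were higher in the antibiotic group, by 7.17-fold and 3.74-fold, with a q of 0.000336 for each in the authors' deposited table, the smallest q among these genes and shared by 27 of them. ZBTB12 was at 0.782 and 3.84 FPKM, with a q of 0.0459 in the authors' deposited table. Its locus overlaps that of another feature, so its reads may be shared. ZBTB16, known as PLZF, a regulator of stem cell upkeep and of innate-like T cells, rose from 1.70 to 3.34 FPKM (q = 0.0379 in the authors' deposited table).

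The 3 ZBTB genes that fell were ZBTB10, ZBTB1 and ZBTB11. ZBTB10, a repressor at GC-rich sites that Sp factors also bind, stood at 4.61 FPKM in the control and 2.16 in the antibiotic group, a 2.14-fold fall. ZBTB1, needed for lymphoid development in mice, stood at 8.31 and 5.001 FPKM. ZBTB11 stood at 7.37 and 5.39 FPKM, and the q was 0.000336, 0.00647 and 0.0374 for the 3 genes in that order in the authors' deposited table. Well known members of the family that did not pass include ZBTB33, the methyl-CpG binder Kaiso, at 7.10 and 4.63 FPKM (q = 0.288 in the authors' deposited table), and ZBTB38 at 17.2 and 16.5 FPKM.

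Outside the ZBTB family the largest rises were of genes with low control levels. ZNF316 stood at 0.653 FPKM in the control and 2.62 in the antibiotic group, and ZNF213, a SCAN and KRAB protein, at 0.879 and 3.23. ZNF205 stood at 1.23 and 4.36 FPKM, and ZNF71 at 1.18 and 3.73. The rises amount to 4.01-fold, 3.68-fold, 3.54-fold and 3.17-fold, with q of 0.00114, 0.00831, 0.000625 and 0.000336 in the authors' deposited table. ZFP92 (1.15 and 3.72 FPKM, q = 0.0168 in the authors' deposited table) shares its locus with a second ZFP92 feature, which stood at 0.482 and 0.924 FPKM and did not pass (q = 0.309). ZNF691 (1.33 to 3.61 FPKM), ZNF76 (2.33 to 5.90 FPKM), a relative of ZNF143 that binds promoters, ZNF511 (7.89 to 17.7 FPKM) and ZNF516 (1.40 to 2.92 FPKM), which promotes brown fat genes in mice, complete the 12 largest rises. Of the 12, ZBTB7A and ZNF511 had more than 5 FPKM in the control group, and the other 10 did not exceed 2.33.

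The largest falls were in part of abundant genes. ZNF165, a gene known from testis and tumours, stood at 3.56 FPKM in the control and 0.719 in the antibiotic group, a 4.96-fold fall. ZNF277 stood at 63.2 and 23.0 FPKM, a 2.75-fold fall, and ZFP36L1, an RNA binder that sends AU-rich messages to decay, at 67.7 and 25.4, a 2.66-fold fall. ZNF146, a protein made almost only of zinc fingers, stood at 32.1 and 15.2 FPKM, a 2.11-fold fall, but its locus is shared with ZNF565. All 4 had a q of 0.000336 in the authors' deposited table. The relative of ZFP36L1 moved the other way: ZFP36L2, also a decay factor, rose from 13.99 to 23.2 FPKM (q = 0.0225 in the authors' deposited table), and the difference between these opposite changes was not tested.

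The remaining falls among the 12 largest, by 2.11-fold to 2.33-fold, were of genes at 1.76 to 8.60 FPKM in the control group. They were ZNF75A (5.35 to 2.29 FPKM), ZNF566 (2.79 to 1.24), ZNF283 (8.60 to 3.90), ZNF510 (3.42 to 1.57), ZNF527 (7.07 to 3.29), ZNF26 (1.76 to 0.824), ZNF84 (5.65 to 2.68) and ZBTB10. ZNF84 has a second feature with the same Ensembl ID and the same start and end, at 4.66 and 3.56 FPKM, that did not pass (q = 0.148 in the authors' deposited table). How reads of that locus were divided between both features was not tested.

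**Figure D2:**
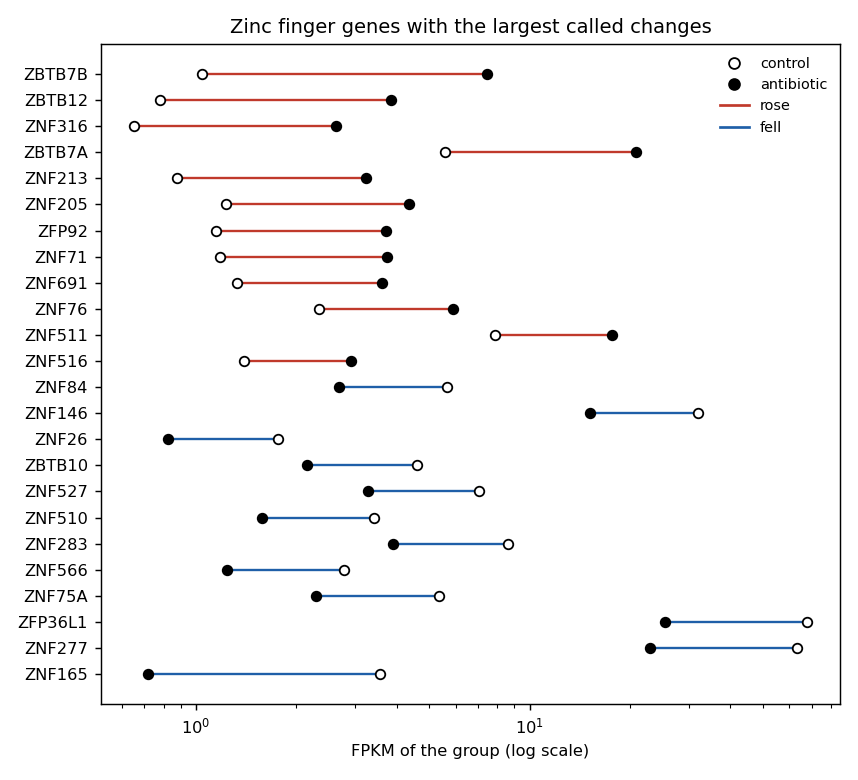
FPKM in the control group and in the antibiotic group for the 12 zinc finger genes with the largest rises and the 12 with the largest falls among those with q under 0.05 and a mean of at least 1 FPKM; the FPKM axis is logarithmic and each point is the single value of a group. ZBTB7B rises from 1.04 to 7.45 FPKM and ZNF165 falls from 3.56 to 0.719.

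The most abundant zinc finger features give a mixed picture. ZFP57, a KRAB protein that keeps imprinted loci methylated, has 4 features: at 392.2 and 92.2 FPKM, 31.4 and 52.6, 21.2 and 24.3, and 5.45 and 6.56, and none passed (q = 0.339, 0.221, 0.755 and 0.828 in the authors' deposited table). The most abundant feature is lower in the antibiotic group and the other 3 are higher, so no single level of the gene can be given. All 4 are given 1 locus of 176250 bases, which they share with features for MOG, PPP1R11, ZNRD1 and C7H6orf12. ZNF319 stood at 60.8 and 105.2 FPKM and ZNF706 at 37.8 and 119, and neither passed (q = 0.0809 and 0.1204 in the authors' deposited table). ZNF664 (39.8 and 39.5 FPKM), ZNF532 (33.8 and 35.4) and ZNF22 (38.8 and 29.9) were further abundant genes that did not pass. Of the 10 highest features 3 passed: ZFP36L1 and ZNF277, which fell, and ZNF385A, an RNA-binding zinc finger protein that acts with p53, which rose from 23.7 to 43.1 FPKM (q = 0.000336 in the authors' deposited table).

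Of 34 well known zinc finger genes that had been tested, 7 rose, 5 fell and 22 did not pass (35.3% called, beside 41.1% of all tested features). A gene with several features counts once here. Genes found only by their Ensembl ID were counted too: ZBTB20, which fell, and ZNF148 are in this list but not among the 248. ZNF423, a partner of the EBF factors needed for the midline cerebellum in mice, rose from 9.74 to 16.3 FPKM, and ZNF598, a ubiquitin ligase that marks stalled ribosomes, from 3.15 to 4.79. ZNF281, a partner of pluripotency factors, fell from 9.20 to 6.34 FPKM. Their q was 0.000891, 0.0358 and 0.0217 in the authors' deposited table. Genes of this list that did not pass include ZNF207, which acts at kinetochores (33.98 and 30.04 FPKM), ZNF24 (18.0 and 15.1 FPKM) and ZNF804A, a schizophrenia-associated gene in people (7.36 and 5.71 FPKM). ZNF521, ZNF536, ZNF143, ZNF292, ZNF335, ZNF365, ZNF410 and ZKSCAN1 did not pass either. Of 15 tested zinc binders of another fold or with RNA-directed roles, 4 rose (ZFP36L2, ZNF598, ZNF385A and ZNF622, a factor of large ribosomal subunit assembly) and 1 fell (ZFP36L1). The 15 include ZNF330, found only by its Ensembl ID, which did not pass.

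Nearest to the threshold, ZFP62, ZNF558 and ZBTB12 passed with a q of 0.0477, 0.0471 and 0.0459 in the authors' deposited table. ZNF398 and ZNF382 missed it with 0.0528 and 0.0566 in the authors' deposited table, and ZNF546 lay just above 0.05. Some of the largest differences did not pass: ZNF185 stood at 0.0640 and 1.54 FPKM, ZNF787 at 0.173 and 1.53, and ZNF784 at 0.332 and 2.45 (q = 0.237, 0.201 and 0.0959 in the authors' deposited table). Those 3 were named after their values were seen. Their control levels were all under 1 FPKM.

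Zinc finger genes were concentrated on chromosome 6, where more of them fell than rose. Of the 248, 69 (27.8%) lay on chromosome 6, which holds 9.04% of all tested features. Among the 69, 3 rose (4.35%) and 22 fell (31.9%), with a median log2 of -0.35. All tested features of chromosome 6 went the other way, with 27.3% that rose and 15.0% that fell (42.3% in either direction), and the 1138 other features had a median of 0.28. Other features here are all that the symbol rule did not choose, and some are zinc finger genes by their Ensembl ID or under another name. Chromosome 6 held 37.9% of all zinc finger falls. On the other chromosomes 28 of 179 zinc finger genes rose (15.6%) and 36 fell (20.1%), with a median of -0.05, beside a median of -0.06 for the 11966 other features there. Of all tested features on those chromosomes 18.1% rose and 22.9% fell.

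Chromosome 3 showed the opposite. Of its 21 zinc finger genes 10 rose (47.6%) and 4 fell, with a median log2 of 0.61, against 23.9% and 17.8% of all tested features of chromosome 3 (41.7% in either direction) and a median of 0.16 for its other features. These 10 make up 32.3% of all zinc finger rises. On chromosome 14, 1 of 17 rose and 7 fell (median -0.38, other features 0.06), where 21.0% of all tested features rose and 19.6% fell. On chromosome 2, 1 of 20 rose and 7 fell (median -0.11, other features 0.24), where 28.6% of all tested features rose and 17.4% fell. On chromosome 10, 1 of 7 rose and 4 fell, where 13.4% of all tested features rose and 26.6% fell. None of the 8 on chromosome 12 passed the authors' test, with 0 at an unadjusted p under 0.05. No test of these differences between chromosomes was made, since neighbouring copies are not independent.

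**Figure D3:**
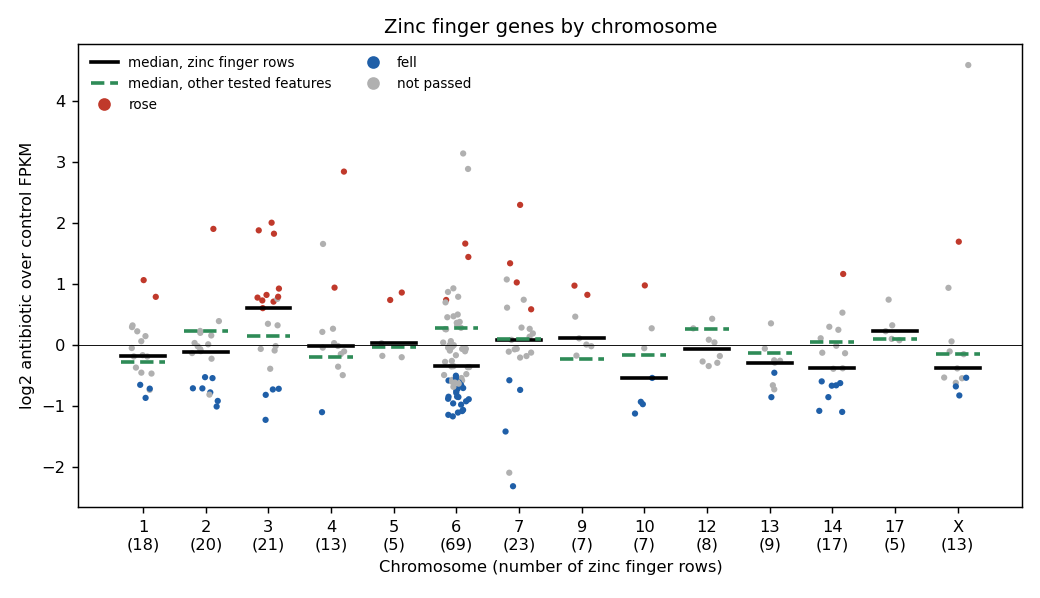
Log2 of antibiotic over control (vertical) for every zinc finger gene by chromosome (horizontal, with the number of genes in brackets), 1 point per feature coloured by call, for the chromosomes with at least 5 of them; solid bars mark their median and dashed bars the median of the other tested features, and points are spread sideways only to be visible. On chromosome 6 the solid bar lies at -0.35 and the dashed bar at 0.28, and on chromosome 3 they lie at 0.61 and 0.16.

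Several groups of neighbouring zinc finger genes had calls in 1 direction only, and several others had no call. With at most 500000 bases between neighbours and at least 4 features, a rule set after the values were seen, there were 14 clusters. They held 89 zinc finger features, of which 9 rose (10.1%) and 29 fell (32.6%). A gene with several features counts several times. The cluster from 25016182 to 25192432 on chromosome 7 is 4 features of 1 symbol, ZFP57, at the same locus, and that on chromosome X has 4 features of 3 symbols. Of the 159 features outside clusters 22 rose (13.8%) and 29 fell (18.2%), where 19.0% of all tested features rose and 22.2% fell. On chromosome 6 the clustered genes made up 49 of the 69, with 1 that rose and 19 that fell, and the 20 outside clusters gave 2 that rose and 3 that fell.

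The largest cluster ran from 40999387 to 42305388 on chromosome 6, in the coordinates of the deposited table. The submitters' processing notes list the genome names susScr3 and mm8 without saying which of them the coordinates follow. The coordinates do not match Sscrofa11.1, where the last gene of chromosome 14 ends at 141741455 while a zinc finger gene of the table ends at 153221497. Of the 17 zinc finger genes of the cluster 12 fell and 0 rose, and 16 of the 17 were lower in the antibiotic group. Control levels ran from 2.56 to 32.1 FPKM and antibiotic levels from 1.24 to 15.2, with medians of 5.91 and 4.13, and log2 differences from -1.17 to 0.26 around a median of -0.71. Those that fell were ZNF146, ZNF567 (9.71 to 5.41 FPKM), ZNF461 (2.56 to 1.56), ZNF566, ZFP14 (6.31 to 4.13), ZNF568 (12.4 to 7.92), ZNF829 (2.92 to 1.48), ZNF383 (8.17 to 4.56), ZNF527, ZNF569 (3.02 to 1.65), ZNF470 (4.76 to 2.83) and ZFP30 (7.88 to 5.57). In the authors' deposited table their q ran from 0.000336 to 0.0431. ZNF568 is known from mice, where its loss disturbs early embryos.

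Of the other 5 genes of that cluster 4 were lower without passing: ZNF565 (6.498 and 5.07 FPKM), which shares its locus with ZNF146, ZNF382 (3.61 and 2.42), ZNF529 (5.91 and 4.21) and ZNF260 (4.49 and 3.09). Only ZNF790 was higher in the antibiotic group, at 4.995 and 5.98 FPKM (q = 0.535 in the authors' deposited table). The same interval held 4 other tested features outside the symbol rule, of which 0 rose and 3 fell. One of those that fell carries a zinc finger symbol after an Ensembl ID (ZNF850, 10.1 to 7.10 FPKM), and the other 3 have no symbol. Reads that match several copies could move such neighbours together. This was not tested, as no source used here says how such reads were counted.

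**Figure D4:**
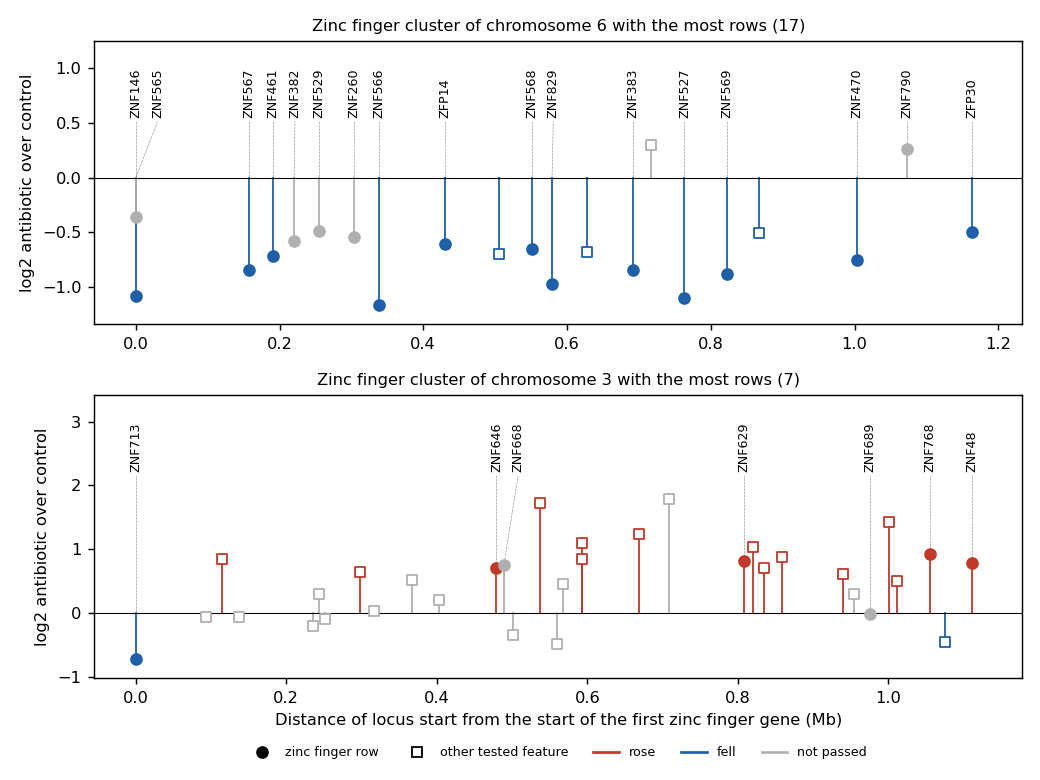
Log2 of antibiotic over control (vertical) against the distance of each locus start from that of the first zinc finger gene (horizontal, Mb) in the cluster of 17 on chromosome 6 (top) and the cluster of 7 on chromosome 3 (bottom); filled circles are zinc finger genes, open squares other tested features, and colours give the call. In the top panel 16 of 17 circles lie below 0, and in the bottom panel 4 of 7 circles and 12 of 26 squares are called higher.

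Other clusters differed from this one. In 6 genes from 46148297 to 46863855 on chromosome 6, ZNF283, ZNF404 (2.67 to 1.28 FPKM) and ZNF180 (4.25 to 2.19 FPKM) fell and 0 rose, while of the 8 other features there 4 rose and 0 fell. In 14 features with 13 symbols from 55574310 to 57743932 on chromosome 6, ZNF71 rose and ZNF667, ZNF583, ZNF134 and ZNF606 fell. In 4 genes from 54509487 to 54735350 on that chromosome (ZNF628, ZNF524, ZNF784 and ZNF319) all were higher in the antibiotic group and none passed. None passed either in the clusters that start at 82938294 and 111405610 on chromosome 6, at 16878 on chromosome 4 and at 25016182 on chromosome 7. Of the 7 genes from 23874522 to 24498640 on chromosome 7, 1 fell (ZNF165) and 0 rose. The cluster on chromosome 14 from 23739034 to 24038943, with ZNF268, ZNF84, ZNF26 and ZNF605, had 5 features of which 4 fell, and that on chromosome 2 from 81015347 to 81272236 had 4 features of which 3 fell. The chromosome 14 interval held 1 other tested feature, ANHX, which rose from 0.413 to 2.03 FPKM, and the chromosome 2 interval held 0.

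Both clusters on chromosome 3 held more genes that rose than fell. From 17248092 to 18376614, 4 of 7 zinc finger genes rose, namely ZNF646 (0.946 to 1.55 FPKM), ZNF629 (4.09 to 7.24), ZNF768 (7.61 to 14.5) and ZNF48 (2.43 to 4.16), and ZNF713 fell (3.96 to 2.39). Of 26 other tested features in that interval 12 rose and 1 fell. From 40170977 to 40483413, ZNF174, ZNF205 and ZNF213 rose and ZNF75A fell, while of the 4 other features 0 rose and 0 fell. The median log2 of the other features was 0.51 in the first of these intervals and -0.36 in the second, where the zinc finger medians were 0.76 and 0.79. The second held only 4 other features, too few to compare, 1 of them named ZNF200 by its Ensembl ID.

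Locus length, the span from start to end in the table, had a median of 22417.5 bases for zinc finger genes and 30048.5 for all tested features. Falls were most frequent in the class from 20000 to 50000 bases: of 84 zinc finger genes 6 rose (7.14%) and 30 fell (35.7%), with a median log2 of -0.29, where 20.2% of all tested features of that class rose and 23.6% fell. From 5000 to 20000 bases 17 of 97 rose (17.5%) and 19 fell (19.6%), with a median of -0.04. Of all tested features of that class 25.3% rose and 19.6% fell, with a median of 0.13. Under 5000 bases 4 of 16 rose and 3 fell, beside 19.4% and 21.4% of all tested features. At 50000 bases or more 4 of 51 rose and 6 fell (11.8%), beside 12.8% and 23.4% of all tested features. The share that fell was thus highest in the class from 20000 to 50000 bases and did not increase steadily with length. The 44 zinc finger loci that overlap another feature had a median length of 58783.5 bases, and 22.7% were called (27.0% of all such tested features). The 204 others had a median of 19090.5 bases, and 38.7% were called (44.9% of all such tested features). The part of overlap in the length classes was not tested.

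Length and chromosome overlap in this. On chromosome 6, 28 zinc finger genes lay in the class from 20000 to 50000 bases, and 1 rose and 13 fell (46.4%), with a median log2 of -0.56, while of the other 313 features of that class and chromosome 103 rose and 37 fell. On the other chromosomes 5 of 56 zinc finger genes in the class rose (8.93%) and 17 fell (30.4%), with a median of -0.16, against -0.09 for the 3207 other features. Of all tested features of that class on those chromosomes 19.1% rose and 24.5% fell. Across genes, Spearman's rho between length and log2 difference was -0.11 for the 248 zinc finger genes and -0.11 for 13339 tested features with both values above 0. It was -0.13 for the 69 on chromosome 6 and -0.07 for the 179 elsewhere. These coefficients describe genes that share the same 2 group values and are not independent replicates.

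**Figure D5:**
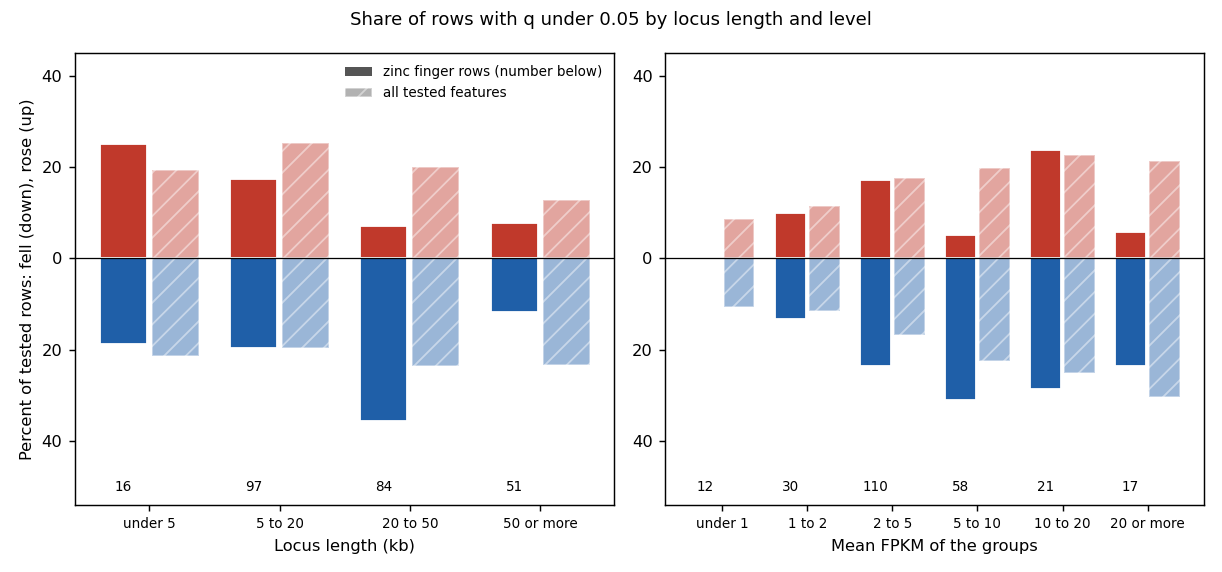
Percent of features with q under 0.05 that rose (red, upward from 0) and fell (blue, downward from 0) by class of locus length in kb (left) and of mean FPKM (right), solid for zinc finger genes, whose number stands under each bar, and hatched for all tested features. In the length class from 20000 to 50000 bases 35.7% of zinc finger genes fell against 23.6% of all tested features, and in the class from 5 to 10 FPKM 31.0% against 22.4%.

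The partners through which these proteins act were measured too. Of 17 tested genes of the KRAB corepressor machinery 2 rose and 5 fell, with a median log2 of -0.15. The share called in either direction, 41.2%, was at the background of 41.1%. The falls were of CBX3, a heterochromatin protein (68.0 to 19.4 FPKM), SUMO2, a small protein modifier (430 to 149), the deacetylase HDAC2 (31.5 to 19.3), and PPHLN1 (19.2 to 9.96) and TASOR (13.03 to 7.80), both of the HUSH complex. CHD3 (21.2 to 32.6 FPKM), a NuRD remodeller, and MORC2 (7.67 to 10.6), which acts with HUSH, rose. In the authors' deposited table the q of these 7 ran from 0.000336 to 0.0323. The methyltransferase SETDB1 did not pass, at 17.5 and 16.9 FPKM. MPHOSPH8 (10.5 and 9.19 FPKM), CBX5 (10.6 and 7.17) and both features of CBX1 did not pass either. HDAC1 was higher in the antibiotic group (0.380 and 0.986 FPKM) without passing. TRIM28 was not analysed here.

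Among 12 tested partners of BTB proteins 3 rose and 2 fell (41.7% called, also near the background), with a median log2 of -0.08, which became 0.0018 under upper quartile scaling. The corepressor SIN3B (11.9 to 19.8 FPKM) and the class IIa deacetylases HDAC4 (1.19 to 2.39) and HDAC5 (19.6 to 40.2) rose. The ubiquitin ligase scaffold CUL3 (36.6 to 21.8 FPKM) and TBL1XR1 (12.5 to 6.404) fell. In the authors' deposited table the q of CUL3 was 0.00271 and that of the other 4 was 0.000336. Of 63 tested C2H2 regulators with other names 10 rose and 13 fell (median -0.03, and 0.048 under upper quartile scaling), shares near those of all tested features.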

How the data were processed

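RNA-seq had been made from piglet hypothalamus, 4 control and 3 antibiotic libraries, grouped by their titles. Per the file headers, the authors deposited 1 FPKM value per gene and group, with a log2 fold of antibiotic over control, a p-value, a q-value and a test statistic (a score, not used). How the authors combined and scaled the libraries, counted multiply matching reads or treated strand is not stated. The submitters' processing notes list Bowtie 0.12.2, susScr3 and mm8, with no role for either genome name. No column held a single library (0 of them), so no replicate spread, depth or new test could be computed, and every call uses the authors' q under 0.05.

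The table held 16991 features after 6 blank ones were left out. Zinc finger genes were chosen by symbol. The 24 features named as such only through their Ensembl ID are not among the 248 and enter an alternative. The lists of well known genes and of zinc binders could also take genes by Ensembl ID, such as ZBTB20, ZNF148 and ZNF330. Of the 248, 171 had an Ensembl ID in the gene name table, and 4 of these carry another name there (ZNF354A, ZNF585B, ZNF282 and ZNF70). The loci of 44 overlap another feature.

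Counts and medians were computed in Python 3.11.15 with pandas 2.3.3 and numpy 2.4.6, tested on simulated data, and drawn with matplotlib 3.10.9. Named were the 12 largest rises and 12 largest falls (mean level of 1 FPKM or more), the 10 highest levels, the listed well known genes, called partners, and the 3 nearest to the threshold on each side. The genes and lists were chosen with earlier results of these data known. Protein, promoter and genome sequences were not used here. A gene of the BTB partner list is not reported here and was left out of its counts.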

Additional observations from a re-analysis of the deposited data

How the results depend on the processing

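No paired analysis was possible because the table holds 1 value per group, and for the same reason leaving out single libraries was not run. With q under 0.01, 17 zinc finger genes rose and 35 fell. With the authors' 2-fold call 13 rose and 14 fell. With at least 5 FPKM in a group (111 genes) 14 rose and 33 fell, with a median log2 of -0.20. With q under 0.01, 6 genes of chromosome 3 rose, 3 genes of 20000 to 50000 bases rose and 18 fell, and 9 genes of 5000 to 20000 bases rose and 11 fell. The median of chromosome 3 became 0.42 when features named only through their Ensembl ID were added. Taking the locus lengths between the outer quartiles of all tested features in place of 20000 to 50000 bases gave 18 that rose, 44 that fell and a median of -0.18. For the other settings, apart from the 2-fold call, the shares of all tested features are not given here. Their counts therefore have no background to be read against. The thresholds and the number of genes change by construction in these settings, and further causes were not tested. Upper quartile and trimmed mean scaling move every log2 value alike, by 0.08 and 0.03, and quantile scaling moved called genes by at most 0.12, so these settings and pseudocounts could not turn a called gene. The largest cluster gave 12 that fell of 17 with gaps of 300000 or 1000000 bases too. Many zinc finger genes lie under 5 FPKM, and with the depth unknown, a gene that did not pass there is not shown to be unchanged.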

Other observations

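A further 24 tested features carry no such symbol and are named as zinc finger genes of the same families only through their Ensembl ID. Of these 1 rose and 6 fell, where 19.0% of all tested features rose and 22.2% fell. The one that rose, at 7.89 FPKM in the control and 16.6 in the antibiotic group, carries the symbol PRAM1 in the table and the name ZNF414 by its ID. ZNF197 fell from 6.31 to 1.99 FPKM. ZBTB20, a repressor protein with a role in hippocampal and glial development in mice, stood at 22.3 FPKM in the control and 13.9 in the antibiotic group. Its q was 0.0111 in the authors' deposited table. ZNF800, ZNF644, ZNF286A and ZKSCAN8 also fell.

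Features that share the annotation of these genes without sharing their symbols gave counts of a similar kind. Of 191 other tested features annotated with both metal ion binding and nucleic acid binding, 26 rose (13.6%) and 43 fell (22.5%), with a median log2 of -0.14, and of 210 zinc finger genes with both terms 23 rose and 51 fell, with a median of -0.09. On chromosome 6, 4 of 38 such other features rose and 7 fell (median -0.17), and 3 of 66 zinc finger genes rose and 21 fell (median -0.35).

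The 17 zinc finger features that the authors had not tested were all under 1 FPKM in both groups. ZFP36, ZNF19, ZNF215, ZNF648 and ZSCAN10 were listed at 0 in the control group.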
